A study of Mus musculus with 57 samples.

Results

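Perineuronal nets are lattices of extracellular matrix that wrap the cell body and proximal dendrites of certain neurons, in the cortex mainly the fast-spiking interneurons that contain parvalbumin. Their backbone is hyaluronan, a long sugar polymer made at the cell surface. Chondroitin sulfate proteoglycans of the lectican family bind it, small link proteins clamp this bond, and tenascin-R ties the lecticans to one another. In rodent cortex the nets form during postnatal life as the critical period closes.

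The 8 genes described here were taken by name from 51456 gene identifiers in the deposited table. They are the 4 lecticans Acan (aggrecan), Ncan (neurocan), Bcan (brevican) and Vcan (versican), the link proteins Hapln1, Hapln2 and Hapln4, and Tnr (tenascin-R). The rule goes by name and sets no threshold on a measured value. Each of the 8 had a mean above 10 and was tested.

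The data were 57 RNA-seq libraries of prefrontal cortex from C57BL/6N mice at postnatal day 25. Heterozygous mice (HT) carried an altered copy of Shank2, whose product is a scaffold of excitatory synapses, beside a normal copy, and wild-type mice (WT) carried none. The nature of the Shank2 allele is not in the labels. Pups received fluoxetine (a blocker of serotonin reuptake), lithium (used against mania) or vehicle by way of their mothers' milk for 3 weeks, from day 3 to day 24, so no dose per pup is known. The 6 arms held 10 HT fluoxetine, 10 WT fluoxetine, 10 HT lithium, 9 WT lithium, 10 HT vehicle and 8 WT vehicle libraries, with 4 or 5 of each sex. The labels name neither litters nor whether a library is 1 animal, so the p-values reflect spread among libraries that may in part be technical. Pups of 1 mother shared her treatment. The p-values of the drug comparisons count each library as independent, which cannot be checked without the litters.

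Shank2 read 3877 to 5006 normalized counts in the HT libraries, against 6762 to 11791 in the WT libraries, so no library went against its genotype label. The sum of normalized counts per library was even, between 30.4M and 33.2M. The libraries that correlated least with the others were WT vehicle male 2, with a median r of 0.968, and HT fluoxetine male 3, with 0.970. Markers of striatal projection neurons summed to 6425 to 32945, and those of the olfactory bulb to 804 to 18906, so the libraries differed widely in markers of neighbouring regions. In 12 libraries (5 HT, 7 WT) the striatal markers lay on average more than 1 log2 unit above their mean, and the called results are also given, singly or as counts, without these. By treatment 6 of the 12 were fluoxetine, 3 lithium and 3 vehicle libraries. The 3 vehicle libraries were all WT (female 3, female 4 and male 1), out of 8 WT vehicle libraries. The highest HT vehicle library stood at -0.40 on this scale, so the vehicle arms were unbalanced in these markers.

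Most of these genes lie in pairs. On GRCm38 with the GENCODE vM21 annotation, 3 of the link protein genes lie next to a lectican gene, with no coding gene between. Hapln4 (chromosome 8, 70083457 to 70090862, plus strand) and Ncan (chromosome 8, 70093085 to 70120873, minus strand) face each other with their 3′ ends across 2222 bases. Hapln1 (chromosome 13, 89539796 to 89611652, plus strand) and Vcan (chromosome 13, 89655312 to 89742509, minus strand) are 43659 bases apart in the same arrangement. Hapln2 (chromosome 3, 88021750 to 88027583) and Bcan (chromosome 3, 87987531 to 88000230) share the minus strand and lie 21519 bases apart. Acan (chromosome 7, 79053483 to 79115099, plus strand) has the remaining link protein gene, Hapln3, 2 bases from its start. Tnr (chromosome 1, 159523769 to 159931729, plus strand) spans 408 kb.

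The bases before the start of Ncan and Tnr are shown because these 2 genes had the highest correlation of the 28 pairs over all libraries, as described further on with the library it rests on. Each line gives the 250 bases before the start in RefSeq on GRCm38.p6, read 5′ to 3′ on the strand of the gene, with motif matches in capitals. The windows are chr8:70120845-70121094 on the minus strand for Ncan and chr1:159523519-159523768 on the plus strand for Tnr.
Ncan: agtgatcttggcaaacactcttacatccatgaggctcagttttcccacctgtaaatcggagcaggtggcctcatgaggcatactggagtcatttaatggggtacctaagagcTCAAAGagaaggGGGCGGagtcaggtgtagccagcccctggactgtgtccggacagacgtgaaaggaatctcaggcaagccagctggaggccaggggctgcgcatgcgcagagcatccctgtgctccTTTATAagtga
Tnr: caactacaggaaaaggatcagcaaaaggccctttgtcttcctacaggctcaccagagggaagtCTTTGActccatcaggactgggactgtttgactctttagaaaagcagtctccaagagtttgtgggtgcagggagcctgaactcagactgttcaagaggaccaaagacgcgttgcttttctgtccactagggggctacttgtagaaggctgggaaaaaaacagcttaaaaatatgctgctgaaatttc

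Motifs were searched on both strands. One was CTTTGA, the core letters of TCF/LEF factors. The others were the GC box GGGCGG and the TATA box, spelled TATAAA, and no matches overlapped. Ncan held CTTTGA on the other strand from base 138 before the start, GGGCGG from base 126, and TATAAA on the other strand from base 11. Tnr held CTTTGA from base 187 and neither of the others. Of 32851 windows of this length, 13.8% held CTTTGA, 32.7% GGGCGG and 12.4% TATAAA. These are letters found in a window and do not show that a factor binds there. Of the 8 genes, 7 had an entry in this table, all but Hapln4. G and C made up 54.4% of the Ncan window and 46.8% of the Tnr window.

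Per kilobase of transcript the genes spanned a wide range of levels. The brain-specific lecticans led: Bcan stood at 2172 ± 186 and Ncan at 1852 ± 148 normalized counts per kb (SD, n = 57). Tnr followed at 809 ± 84.7 per kb. Among the link proteins Hapln4 was the most abundant, at 454 ± 88.0 per kb, then Hapln1, a link protein whose loss weakens nets in mice, at 181 ± 30.3, and Hapln2, a link protein of the nodes of Ranvier, at 115 ± 35.6. Vcan stood at 95.9 ± 12.7 per kb. Acan, the lectican most used to mark mature nets, was the lowest at 20.3 ± 7.32 per kb, higher than only 16.1% of tested genes, whereas Bcan was higher than 95.1% of them.

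**Figure D1:**
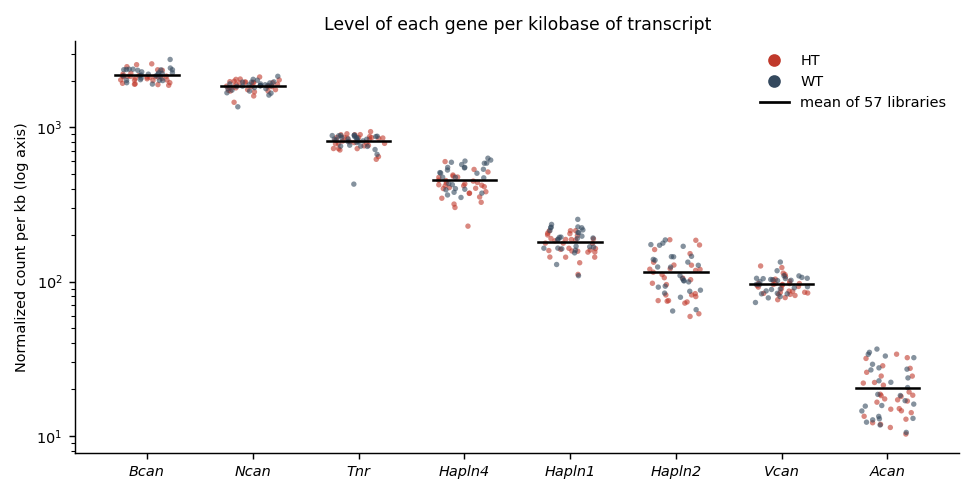
Normalized count per kilobase of transcript of each gene in the 57 libraries on a log axis, 1 point per library coloured by genotype, with a line at the mean. Bcan (mean 2172) and Ncan (1852) lie at the top and Acan (20.3) at the bottom.

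This order held within most libraries. Bcan exceeded Ncan in 53 of the 57 libraries, Ncan exceeded Tnr and Hapln4 exceeded Hapln1 in all 57, and Tnr exceeded Hapln4 in 56. Hapln1 exceeded Hapln2 in 48 libraries and Vcan exceeded Acan in all 57. Hapln2 and Vcan were the neighbours with the closest levels: Hapln2 was higher in 37 libraries and lower in the others. A level per kb rests on the longest coding transcript of GENCODE vM21, so it shifts where another isoform is used.

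The genes also differed in how steady they were between libraries of 1 group. Ncan had a coefficient of variation within groups of 6.92%, Bcan of 8.30% and Tnr of 9.96%. Vcan had 13.2%, Hapln4 14.4% and Hapln1 15.6%. Acan varied by 27.1% and Hapln2 by 29.7%, so a change of a given size was harder to detect in these 2. Vcan shares its locus with the antisense transcript Gm4117, whose mean was 22.6 normalized counts against 1192 for Vcan, and whether strand was used in counting is unknown.

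**Figure D2:**
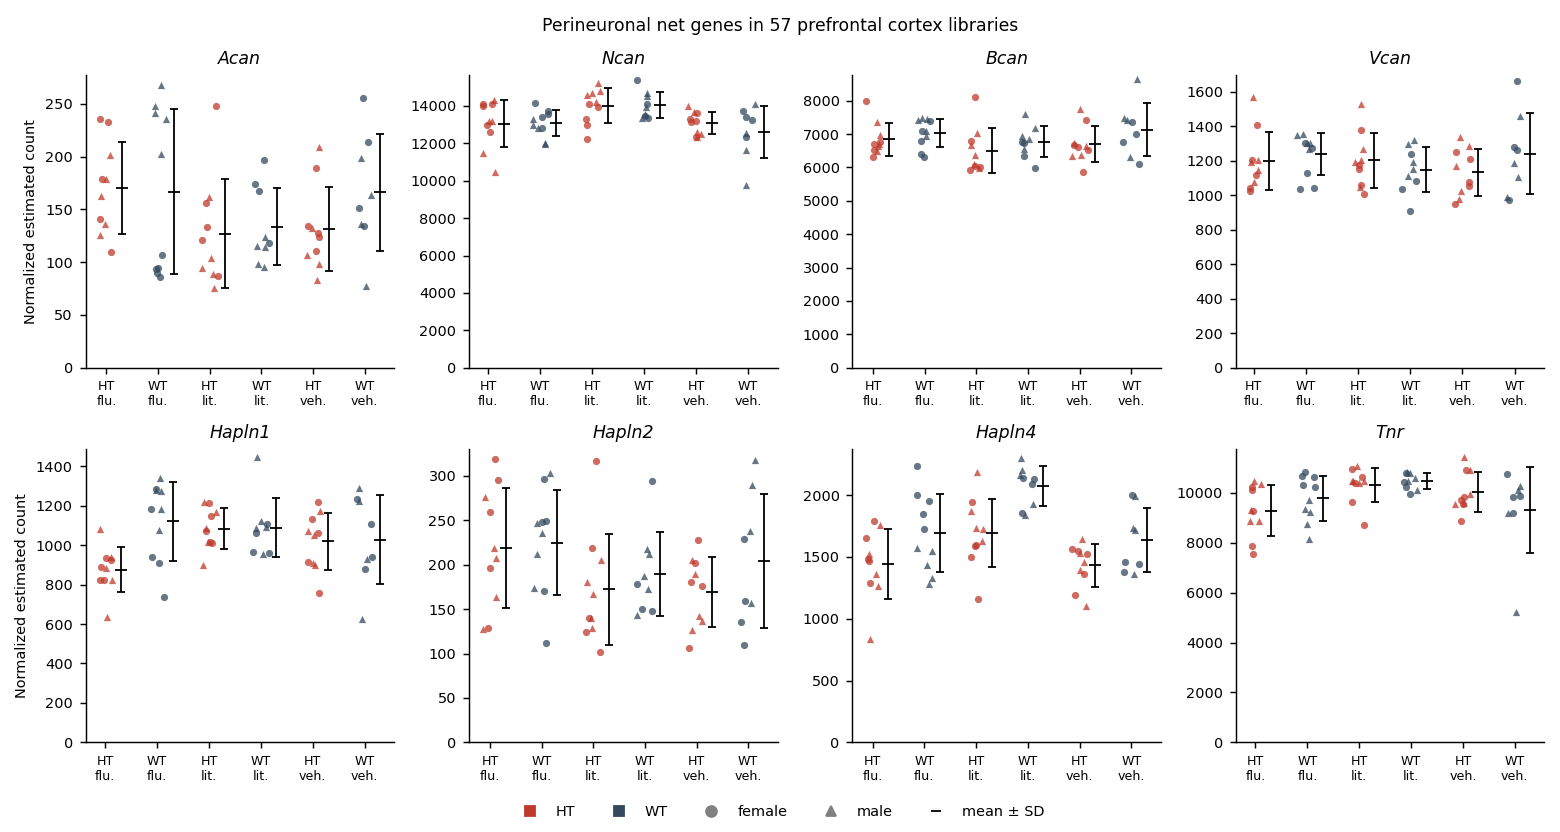
Normalized count of each gene in every library by arm, with the mean and SD beside the points; red is HT, dark blue WT, circles are females and triangles males. Hapln4 is highest in WT lithium libraries, where all 9 lie between 1837 and 2299, and Tnr and Ncan each have their lowest value in 1 WT vehicle library.

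Hapln4 was the net gene that differed by genotype. Hapln4 encodes a link protein that holds brevican to hyaluronan, described mostly in nets of the hindbrain and cerebellum of mice. Over all treatments its normalized count had a lowest, median and highest value of 834, 1530.3 and 2186 in the 30 HT libraries, against 1279.6, 1844 and 2299 in the 27 WT libraries. The ranges overlapped, but 27 of 30 HT libraries lay below the WT median and 5 lay below every WT library. The log2 change was -0.24 ± 0.05 (SE), a 0.846-fold level with an adjusted p of 0.00572 by limma, adjusted over 16659 genes. Hapln4 was the only one of the 8 to pass; across all genes 3.74% passed in either direction, 2.12% as lower. The median change of the 8 genes was -0.08, against 0.00 over all genes tested.

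The Hapln4 difference was negative in each treatment, though within a single treatment it did not pass. Under fluoxetine Hapln4 ran 834, 1475 and 1789 (lowest, median, highest) in HT libraries, against 1279.6, 1652 and 2235 in WT libraries. Under lithium it ran 1159, 1680.4 and 2186 in HT, against 1837, 2132 and 2299 in WT, and 7 of 10 HT libraries lay below every WT library. Under vehicle it ran 1102, 1493 and 1647 in HT, against 1364, 1588 and 2005 in WT. The log2 changes were -0.24 ± 0.09, -0.30 ± 0.10 and -0.19 ± 0.10 in that order, with adjusted p of 0.316, 0.291 and 0.373 in limma. None of the 8 genes passed within a treatment, where 0.222% of genes passed under fluoxetine, 0.114% under lithium and 0.762% under vehicle. At an unadjusted p under 0.05 there were 2 of the 8 under fluoxetine (Hapln1 and Hapln4), 1 under lithium (Hapln4) and 0 under vehicle, against 10.5%, 7.75% and 14.8% of all genes. Without the 12 libraries of high striatal markers the change over all treatments was -0.27 (adjusted p = 0.0452, limma), and without the 2 libraries that correlate least it was -0.20 (adjusted p = 0.00951, limma).

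Markers of parvalbumin interneurons, the cells that nets surround, differed in the same comparison. Of 10 such markers 4 were lower in HT over all treatments and none was higher, against 2.12% lower and 1.62% higher among all genes. This list, like the other lists below, was chosen with earlier results of these data known. The shares are therefore set side by side as a description only. Syt2, a synaptotagmin of fast-releasing terminals, changed by -0.61 ± 0.09 (adjusted p = 6.28e-06, limma), Pvalb, parvalbumin itself, by -0.34 ± 0.07 (adjusted p = 0.00143, limma), Cplx1, a complexin, by -0.23 ± 0.03, and Kcnc1, a fast potassium channel subunit, by -0.13 ± 0.03. The median of the 10 markers was -0.15. Their summed level ran 19636, 25009 and 29407 (lowest, median, highest) in HT, against 23838, 28589 and 32328 in WT, and no marker was at 0 in any library. This sum mostly follows Cplx1, with a mean of 16545 normalized counts, and then Kcnc1, with 5327. Syt2 had a mean of 660 and Pvalb of 441. Each of the 4 still passed without the libraries of high striatal markers and with the length term, a covariate holding each library's trend of transcript length.

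Other marker lists also had negative medians in this comparison. Of 12 oligodendrocyte markers none passed in limma, but 9 were lower at an unadjusted p under 0.05. Among the 16659 genes tested, Bcan ranked 3250 by p in this comparison, at an unadjusted p of 0.053 in limma. Fewer than 3250 genes, in either direction, therefore had an unadjusted p under 0.05. The median of the 12 oligodendrocyte markers, -0.21, lay further from 0 than that of the parvalbumin list. Their summed level ran 59670.1, 110137 and 165837 (lowest, median, highest) in HT, against 74993, 123508 and 197260.0 in WT. The astrocyte list had 2 of 12 called lower, Gjb6 and Ntsr2. The oligodendrocyte precursor list had 1 of 10, Neu4, and the microglia list 1 of 8, C1qb. Their log2 changes were -0.28, -0.16, -0.17 and -0.16 in that order. These 4 calls were lost without the libraries of high striatal markers, where the changes were still -0.26, -0.16, -0.15 and -0.16. In that setting 157 of all genes passed, against 623 with every library. With the length term Gjb6 and Ntsr2 passed (adjusted p = 0.0301 and 0.00763, limma), and Neu4 and C1qb did not (0.0515 for both). Without the 2 libraries that correlate least all but C1qb passed. The medians of the striatal and olfactory bulb lists were -0.25 and -0.36, with no marker called. Under vehicle alone the striatal median was -0.68. There 7 of 10 striatal markers were lower at an unadjusted p under 0.05 in limma and none was called, against 14.8% of all genes in either direction. The part of all these markers in the Hapln4 result was not tested, and in tissue RNA fewer cells of a type and less RNA per cell cannot be told apart.

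The other link proteins and the lecticans did not pass between genotypes over all treatments. Bcan, which Hapln4 clamps, read 5880, 6643 and 8098 (lowest, median, highest) in HT and 5987, 6940.1 and 8645 in WT, a log2 difference of -0.06 ± 0.03 with an adjusted p of 0.272 in limma. Acan had a difference of -0.11 ± 0.10, Hapln2 of -0.15 ± 0.11 and Hapln1 of -0.11 ± 0.06. Ncan, Vcan and Tnr had differences of 0.02 ± 0.03, -0.03 ± 0.05 and 0.01 ± 0.04, and the widest of their 95% intervals, that of Vcan, ran from -0.13 to 0.06. For Acan and Hapln2 the intervals reached -0.30 and -0.37, so a fall of that size could have gone undetected.

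Hapln1 had its widest gap between genotypes under fluoxetine. It ran 636, 887 and 1079 (lowest, median, highest) in HT fluoxetine libraries, against 737, 1185 and 1340.4 in WT fluoxetine libraries. All 10 HT values lay below the WT median, and 6 of 10 WT values lay above every HT value. The log2 difference was -0.35 ± 0.10, with an unadjusted p of 0.00122 and an adjusted p of 0.156 in limma, so it did not pass. Under lithium the difference was 0.01 ± 0.10 and under vehicle 0.01 ± 0.11. The lowest HT value came from HT fluoxetine male 3. Without that library the difference was -0.29 (adjusted p = 0.372, limma). Microglial markers, with which Hapln1 varied, summed to 6133, 10761 and 11592 (lowest, median, highest) in HT fluoxetine libraries and to 8904, 11408 and 12128 in WT fluoxetine libraries, and their part in the Hapln1 values was not tested.

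**Figure D3:**
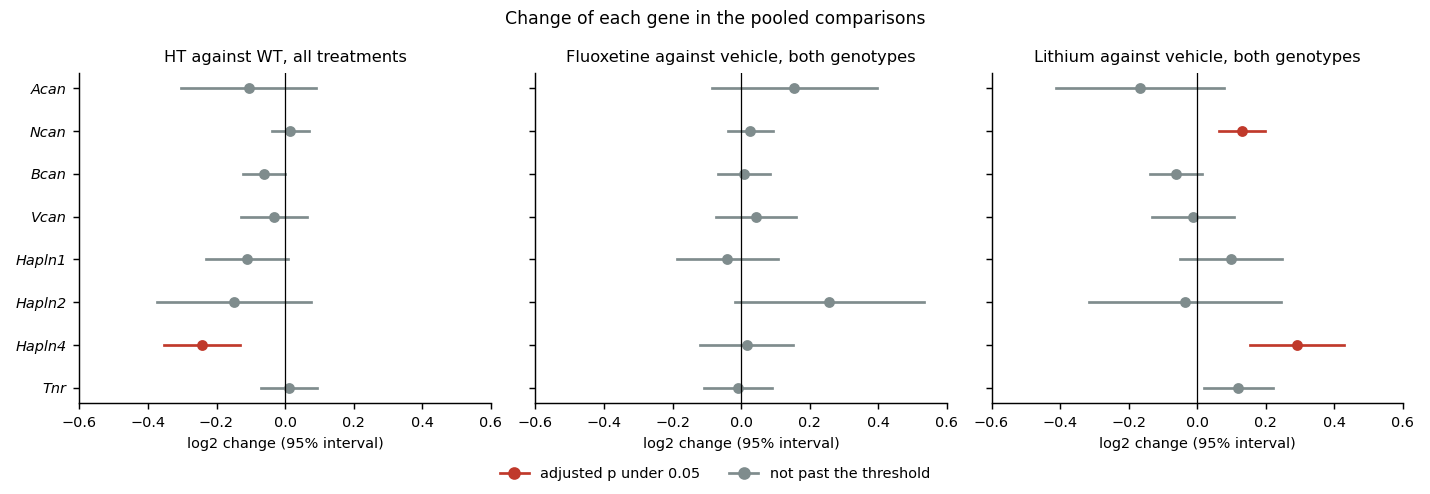
Log2 change of each gene with its 95% interval for HT against WT over all treatments, fluoxetine against vehicle and lithium against vehicle over both genotypes; red marks an adjusted p under 0.05. Hapln4 is at -0.24 in the genotype panel and at 0.29 in the lithium panel, where Ncan is at 0.13.

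Hapln4 and Ncan were higher under lithium, and both calls were lost once a trend of transcript length was allowed for, as given further on. Ncan encodes neurocan, a lectican most abundant in the immature rodent brain. Over both genotypes Hapln4 ran 1159, 1871 and 2299 (lowest, median, highest) in the 19 lithium libraries, against 1102, 1493 and 2005 in the 18 vehicle libraries. Of the lithium libraries 18 lay above the vehicle median and 7 above every vehicle library. The log2 change was 0.29 ± 0.07, a 1.22-fold level (adjusted p = 0.00314, limma). Ncan ran 12208, 14106 and 15399.7 in lithium libraries, against 9767, 13159 and 14118 in vehicle libraries, with 17 of 19 above the vehicle median and 9 above every vehicle library. Its log2 change was 0.13 ± 0.03, a 1.10-fold level (adjusted p = 0.00614, limma).

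The count of 2 in 8 stands beside a broad response: 13.3% of all genes passed under lithium, 7.16% as higher. The median change of the 8 genes was 0.04, against 0.00 over all genes tested. Tnr, whose product cross-links lecticans, ran 8691, 10469 and 11069 in lithium libraries, against 5222, 9829 and 11431 in vehicle libraries. Its log2 difference of 0.12 ± 0.05 did not pass (adjusted p = 0.104, limma). Acan, Bcan, Hapln2 and Vcan had differences of -0.17 ± 0.12, -0.06 ± 0.04, -0.04 ± 0.14 and -0.01 ± 0.06, and Hapln1 of 0.10 ± 0.07, none past the threshold.

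The lithium effect passed in WT and not in HT, and the test of the difference between the 2 effects did not pass. In WT, Hapln4 ran 1837, 2132 and 2299 under lithium, against 1364, 1588 and 2005 under vehicle, and 6 of 9 lithium libraries lay above every vehicle library. Its log2 change was 0.35 ± 0.10 (adjusted p = 0.0231, limma). Ncan in WT ran 13364, 13949.9 and 15399.7 under lithium, against 9767, 12890.3 and 14118 under vehicle, a change of 0.16 ± 0.05 (adjusted p = 0.0287, limma). In that comparison 8.53% of genes passed, 5.45% as higher and 3.08% as lower, and 2 of the 8 net genes did. In HT, Hapln4 ran 1159, 1680.4 and 2186 under lithium, against 1102, 1493 and 1647 under vehicle, a difference of 0.23 ± 0.09 (adjusted p = 0.240, limma). Ncan in HT differed by 0.10 ± 0.05 (adjusted p = 0.336, limma), where 0.888% of genes passed and 12.8% had an unadjusted p under 0.05. The lithium effect in HT minus that in WT was -0.12 ± 0.14 for Hapln4 and -0.07 ± 0.07 for Ncan (adjusted p = 0.897 and 0.870, limma). No gene (0%) passed this difference in limma, and 1218 (7.31%) had an unadjusted p under 0.05, none of them among the 8.

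Parvalbumin interneuron markers also changed under lithium. Over both genotypes 3 of the 10 rose and none fell, against 7.16% higher and 6.14% lower among all genes: Syt2 by 0.59 ± 0.11, Cplx1 by 0.18 ± 0.04 and Kcnc1 by 0.17 ± 0.04. Pvalb had a difference of 0.21 ± 0.09 that did not pass (adjusted p = 0.0871, limma). Their summed level, which mostly follows Cplx1, ran 22761, 27865 and 32328 (lowest, median, highest) under lithium, against 21079.6, 25289 and 31068 under vehicle. The genotype and lithium comparisons use the same libraries, so their values are given side by side only. Without the libraries of high striatal markers all 3 still passed, and with the length term only Cplx1 did. In the other lists 3 of 10 oligodendrocyte precursor markers (Cspg4, Olig2 and Neu4) and 1 of 12 astrocyte markers (Mlc1) were called lower, and 1 of 10 cortical excitatory markers (Neurod6) and 1 of 8 leptomeningeal and mural markers (Lum) were called higher, none of them with the length term. In WT alone the striatal list had a median change of -0.47 under lithium, with no marker called. The part of the markers in the lithium result was not tested.

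The lithium result for Ncan moved with a trend of transcript length. In each library the deviation of each tested gene with a known transcript length was ranked against that length. The net genes and the genes of the marker and matrix lists were left out of this ranking. Spearman's rho of the relation ran from -0.24 to 0.23 with a median of 0.14 in lithium libraries. In vehicle libraries it ran from -0.53 to 0.07 with a median of -0.08. The value of -0.53 belongs to WT vehicle male 2, which also holds the lowest Ncan and Tnr values. The longest coding transcript has 7195 bases for Ncan, 12202 for Tnr and 3648 for Hapln4. With this rho as a term in the fit, the change over both genotypes was 0.28 for Hapln4 (adjusted p = 0.0703, limma) and 0.04 for Ncan (adjusted p = 0.568, limma), and the value for Tnr was -0.04. In WT they became 0.34 (adjusted p = 0.126, limma) and 0.07 (adjusted p = 0.510, limma). Without the libraries of high striatal markers both genes still passed over both genotypes, with changes of 0.27 for Hapln4 and 0.15 for Ncan (adjusted p = 0.0424 and 0.0118, limma). In WT the changes were then 0.28 for Hapln4 (adjusted p = 0.200, limma) and 0.20 for Ncan (adjusted p = 0.0436, limma). Leaving out the library WT vehicle male 3 gave 0.30 for Hapln4 in WT (adjusted p = 0.0589, limma), and leaving out WT vehicle male 2 gave 0.12 for Ncan in WT (adjusted p = 0.120, limma). The Ncan call in WT was also lost without WT lithium female 3 or 4, WT lithium male 3 or 4, or WT vehicle female 3, with adjusted p of 0.0513 to 0.0819 by limma.

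Fluoxetine moved none of the 8 genes past the threshold, in HT, in WT or over both genotypes, where 0.33%, 0.84% and 4.75% of all genes passed in that order. At an unadjusted p under 0.05 there were 2 of the 8 in HT and 0 in the other comparisons, against 14.6%, 15.2% and 20.2% of all genes. The smallest unadjusted p values were in HT. Acan ran 109, 171 and 236 (lowest, median, highest) in HT fluoxetine libraries, against 83.2, 125 and 209 in HT vehicle libraries, and 9 of 10 fluoxetine libraries lay above the vehicle median. The log2 difference was 0.38 ± 0.16, with an unadjusted p of 0.0243 and an adjusted p of 0.262 by limma. The olfactory bulb markers, with which Acan varied, summed to 1356, 4481 and 10985 in HT fluoxetine libraries, against 1094, 1502 and 5626 in HT vehicle libraries. Their part in the Acan values was not tested.

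Hapln1 ran 636, 887 and 1079 in HT fluoxetine libraries, against 756, 1056 and 1219.98 in HT vehicle libraries, with 9 of 10 below the vehicle median. The log2 difference was -0.22 ± 0.10 (unadjusted p = 0.0367, adjusted p = 0.306, limma). Over both genotypes the largest difference under fluoxetine was that of Hapln2, 0.26 ± 0.14 (adjusted p = 0.286, limma), and Hapln4 had 0.02 ± 0.07 with a 95% interval of -0.12 to 0.15. The fluoxetine effect in HT minus that in WT was -0.35 ± 0.15 for Hapln1 and -0.21 ± 0.10 for Tnr, with unadjusted p of 0.0201 and 0.0374 and adjusted p of 0.578 and 0.620 by limma. No gene (0%) passed that difference in limma, and 1285 (7.71%) had an unadjusted p under 0.05.

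Females and males did not differ past the threshold in any of the 8 genes, where 0.108% of all genes passed, and none of the 8 had an unadjusted p under 0.05, against 5.36% of all genes. The limma differences of females minus males over all arms lay between -0.09 for Vcan and 0.07 for Acan.

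The genes varied together only in part between libraries of 1 group. After subtraction of group means, 3 of the 28 pairs passed a permutation test of Pearson's r with 100000 resamples within groups, two-sided and adjusted over the 28. Ncan and Tnr had a Pearson r of 0.57 and a Spearman rho of 0.44 (n = 57, permutation p = 0.00321 and 0.00499, adjusted 0.0326 and 0.0439). Leaving out the 2 libraries farthest from the Ncan median gave an r of 0.45. In the absence of WT vehicle male 2 alone r was 0.36 and the pair did not pass (permutation, adjusted p = 0.0808), nor did it given the length trend (r = 0.29, adjusted p = 0.306), so its place among the pairs rests on that library. Bcan and Hapln1 had an r of 0.48 and a rho of 0.48 (permutation p = 0.00107 and 0.000770, adjusted 0.0300 and 0.0216), and r was 0.55 without the 2 farthest libraries. Vcan and Hapln4 went opposite ways, with an r of -0.46 and a rho of -0.40 (permutation p = 0.00349 and 0.00627, adjusted 0.0326 and 0.0439), and r was -0.38 without the 2 farthest.

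None of the 3 pairs of neighbouring link protein and lectican genes passed over all 57 libraries, but 1 of them did without WT vehicle male 2. Hapln4 and Ncan had an r of 0.40 and a rho of 0.38 (permutation p = 0.0268 and 0.0115, adjusted 0.125 and 0.0644), and r was 0.42 without the 2 farthest libraries. Leaving out WT vehicle male 2 alone gave an r of 0.58 for this pair (permutation, adjusted p = 0.012), and given the length trend r was 0.48 (adjusted p = 0.0498). Hapln2 and Bcan had an r of 0.26 and a rho of 0.18 (permutation p = 0.120 and 0.241, adjusted 0.341 and 0.449). Hapln1 and Vcan had an r of -0.01 and a rho of 0.05 (permutation p = 0.974 and 0.758, adjusted 0.992 and 0.884). Leaving out the 2 farthest libraries gave 0.12 and 0.14 for these 2 pairs. Acan and Tnr had an r of -0.42 and a rho of -0.48, where rho passed and r did not (permutation p = 0.0264 and 0.00166, adjusted 0.125 and 0.0232), and r was -0.37 without the 2 farthest libraries. For this pair r passed without WT vehicle male 2 (r = -0.50, permutation, adjusted p = 0.0248) and given the length trend (r = -0.50, adjusted p = 0.0332). The median r over the 28 pairs was 0.01.

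Each gene varied with the markers of 1 or more cell types or regions, among 72 relations of 8 genes and 9 marker lists tested in the same way. Hapln4 varied with the parvalbumin interneuron list, with an r of 0.71 and a rho of 0.65 (permutation p = 1e-05 for both, the smallest that 100000 resamples can give, adjusted p for r 0.00012). Without the 2 farthest libraries this r was 0.67. It also varied with the cortical excitatory list (r = 0.53, rho = 0.55, permutation p = 0.00045 and 6e-05, adjusted p for r 0.00295, and r = 0.60 without the 2 farthest). Ncan varied with the parvalbumin list less closely (r = 0.42, rho = 0.43, permutation p = 0.00764 and 0.00513, adjusted p for r 0.0306), and r was 0.47 without the 2 farthest libraries. Vcan and Bcan went the opposite way, with r of -0.51 and -0.43 and rho of -0.51 and -0.40 (permutation p for r 0.00059 and 0.00316, adjusted 0.00354 and 0.0134), and r of -0.43 and -0.39 without the 2 farthest.

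**Figure D4:**
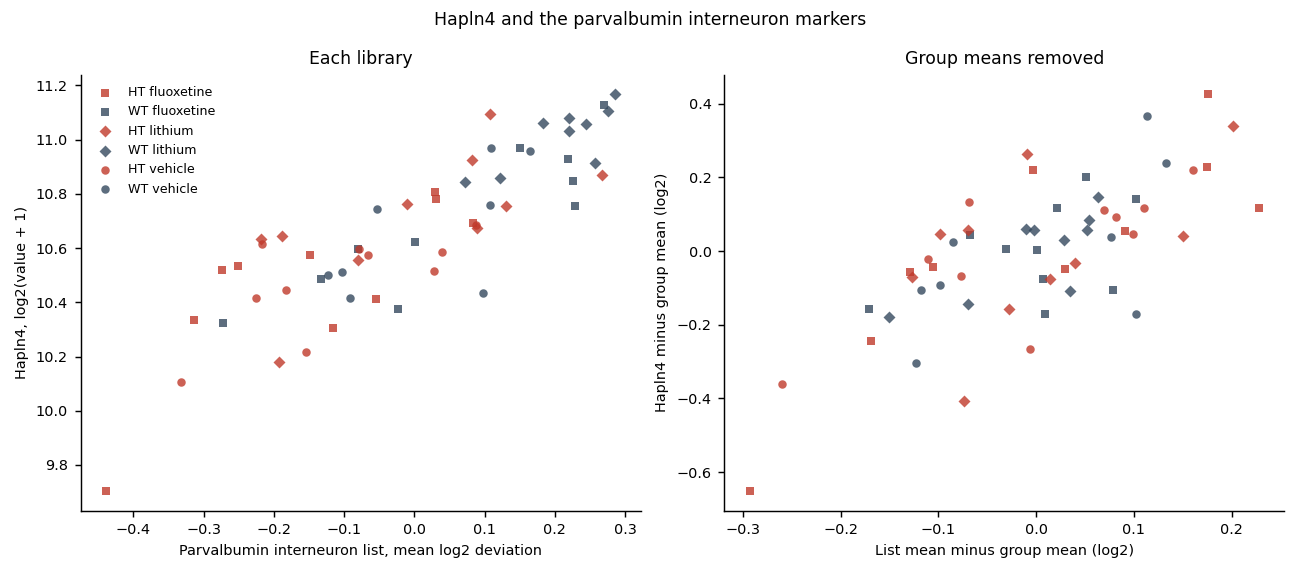
Hapln4 as log2(value + 1) against the mean log2 deviation of 10 parvalbumin interneuron markers, 1 point per library (n = 57), as measured on the left and with group means removed on the right, where r is 0.71. Red is HT and dark blue WT; WT lithium libraries lie at the upper right of the left panel.

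The others varied most with markers of glia or of the olfactory bulb. Bcan varied with the astrocyte list (r = 0.78, rho = 0.77) and with the oligodendrocyte precursor list (r = 0.62, rho = 0.56). Hapln2 varied with the oligodendrocyte list (r = 0.68, rho = 0.60) and the precursor list (r = 0.67, rho = 0.69). Hapln1 varied with the microglia list (r = 0.63, rho = 0.65). Acan varied most with the olfactory bulb list (r = 0.74, rho = 0.70, and r = 0.69 without the 2 farthest libraries). For these 6 relations the permutation p was 0.0001 or less for both measures and the adjusted p for r was 0.00018 or less. Without the 2 farthest libraries the 6 values of r were 0.76, 0.55, 0.67, 0.63, 0.61 and 0.69 in that order. Further relations also passed, so most genes were not tied to a single cell type. Bcan varied with the leptomeningeal and mural list (r = 0.61) and the microglia list (r = 0.54). Hapln1 varied with the leptomeningeal and mural list (r = 0.56) and the astrocyte list (r = 0.48). Hapln2 varied with the striatal list (r = 0.43). Acan and Vcan went opposite to the cortical excitatory list (r = -0.47 and -0.52). Tnr had an r of -0.365 and a rho of -0.42 with the olfactory bulb list (permutation p = 0.00912 and 0.00429, adjusted p for r 0.0346, and r = -0.32 without the 2 farthest), its only relation with an adjusted p for r under 0.05.

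**Figure D5:**
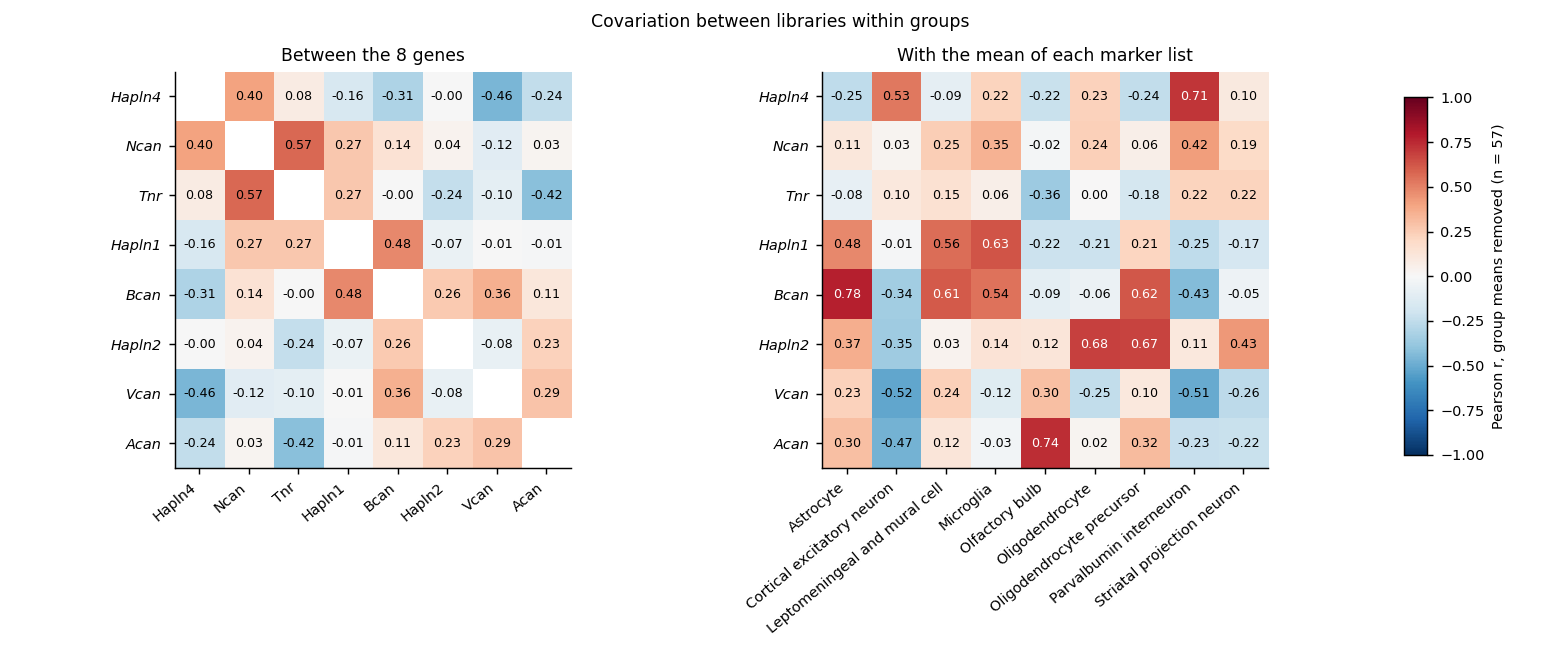
Pearson r between libraries with group means removed (n = 57), between the 8 genes on the left and of each gene with the mean of each marker list on the right, coloured from -1 to 1. Hapln4 with parvalbumin interneuron markers (0.71), Bcan with astrocyte (0.78), Hapln2 with oligodendrocyte (0.68) and Acan with olfactory bulb markers (0.74) stand out from the values between the 8 genes, which reach 0.57.

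Among all tested genes, those with a pattern most like each net gene over the 57 libraries, with group means removed, were as follows. Hapln4 was most like Sema7a (r = 0.83), Gabra3, Asap1, Lynx1 and Gfra2 (0.76). Ncan was most like Clasp2 (0.84), Ncam1, Arhgef12, Cpd and Mgat5 (0.79). Tnr was most like Vps13b (0.92), Grin2b (0.91), Hectd4, Tmem178b and Xkr4 (0.89). Bcan was most like Msn (0.78), the astrocyte glutamate transporter Slc1a3 (0.78), Pbxip1, Tcn2 and Col4a2 (0.76). Hapln2 was most like Mobp (0.79), a myelin protein gene, Plekhb1, Efhd1, Arhgef10 and Tmem88b (0.73). Acan was most like Gcnt1 (0.80), Meis1, Lgr6, Vipr2 and Sp8 (0.78). Hapln1 was most like Luzp2 (0.70), Zfp950, Vcam1, Fermt3 and Hus1 (0.68). Vcan was most like Med12 (0.75), Rtel1, Tex9, Mbd6 and Fam76b (0.66). These genes were picked from 16659 for their r, which is given as a description with no test.

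The genes that build, modify, cut and bind the net were read from 7 lists of 72 genes, 68 of them tested. Of these, 1 was higher and 3 were lower in HT over all treatments, against 1.62% higher and 2.12% lower among all genes. Under lithium over both genotypes 10 were higher and 2 lower, against 7.16% and 6.14% of all genes. Under fluoxetine over both genotypes none passed in limma, against 4.75% of all genes, and 8 were higher and 8 lower at an unadjusted p under 0.05, against 20.2% of all genes in either direction. The median log2 change of the 68 genes was 0.00 between genotypes, 0.04 under lithium and 0.02 under fluoxetine.

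Enzymes of hyaluronan and of sulfation made up the genotype calls. Has3, a hyaluronan synthase, was lower in HT by a log2 change of -0.37 ± 0.07 (adjusted p = 0.00133, limma), and Has2, another synthase, was higher by 0.46 ± 0.13 (adjusted p = 0.0274, limma) at a mean of only 11.1 normalized counts. Ust, which sulfates uronic acid of the chondroitin chain, changed by -0.18 ± 0.04 (adjusted p = 0.00985, limma). Chst11, a chondroitin 4-O-sulfotransferase and at 374 normalized counts per kb the most abundant enzyme of its list, changed by -0.11 ± 0.03 (adjusted p = 0.0232, limma). Chst15 stood at 308 and Ust at 250.4 per kb. All 4 calls passed with the length term, but without the libraries of high striatal markers only Has3 did (-0.31, adjusted p = 0.0365, limma).

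Of the 12 lithium calls over both genotypes only Rtn4rl2 still passed with the length term, where B3gat3 turned to 0.024, and 8 passed without the libraries of high striatal markers. The chain-building list had 3 of 13 higher and 1 lower, where 7.16% of all genes were higher and 6.14% lower. Chsy3, a chondroitin synthase, rose by 0.23 ± 0.06, Xylt1, which starts the chain, by 0.20 ± 0.05, and Fam20b, a xylose kinase of the linker, by 0.08 ± 0.02, whereas B3gat3, which completes the linker, fell by 0.09 on the log2 scale. B3gat3 was the most abundant of them at 1854 per kb, with Chpf at 735 and Fam20b at 699. In the list of net ligands and receptors, 3 of the 9 tested genes rose. Rtn4rl2, a Nogo receptor homologue, rose by 0.19 ± 0.04, Nrp1, a semaphorin receptor, by 0.22 ± 0.06, and its co-receptor Plxna4 by 0.14 ± 0.05. The most abundant were Ptprs, a chondroitin sulfate receptor, at 2676 per kb, Rtn4r at 1353 and Rtn4rl2 at 971.

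In the remaining lists lithium moved single genes, where 7.16% of all genes were higher and 6.14% lower. Adamts8, a protease, rose by 0.23 ± 0.06, 1 of 15 proteases tested, in a list led by Mmp17 at 1312, Ctss at 996 and Mmp24 at 428 per kb. Timp2, a protease inhibitor, rose by 0.11 ± 0.03, 1 of 5, and led its list at 2553 per kb before Timp3 at 580.4 and Timp4 at 108. Cemip, which takes part in hyaluronan breakdown, rose by 0.20 ± 0.05, 1 of 7, and led its list at 248 per kb before Cemip2 at 109 and Hyal2 at 81.9. Among 10 other matrix genes Cntn1, a contactin that binds tenascin-R, rose by 0.11 ± 0.04 and Cspg4, a proteoglycan of oligodendrocyte precursors, fell by 0.19 on the log2 scale. The most abundant there were Sparcl1 at 16556, Sparc at 3607 and Cntn1 at 2477 per kb. In WT alone 8 of the 68 were higher under lithium and none lower, against 5.45% and 3.08% of all genes, and of the 8 only Rtn4rl2 passed with the length term and 4 without the libraries of high striatal markers. Xylt1 changed by 0.35 ± 0.07, Cemip by 0.29 ± 0.08, Ptprf by 0.28 ± 0.08, Rtn4rl2 by 0.28 ± 0.06, Plxna4 by 0.25 ± 0.07, Cntn1 by 0.20 ± 0.05, Timp2 by 0.14 ± 0.05 and Fam20b by 0.11 ± 0.04.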

How the data were processed

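The deposited table holds a signal per gene and library: estimated counts normalized between libraries by the authors. Per the submitters' processing notes the tools were Salmon 0.11.2, R 3.6.0 and DESeq2 1.19.11 with the build GRCm38, and per the labels' protocols the libraries were TruSeq Stranded mRNA. The annotation release and filters are not known. Values are not whole counts, so no count test was run.

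The 16659 genes whose mean reached 10 were fitted as log2(value + 1) with limma 3.58.1 in R 4.3.3 (trend and robust), with a mean for each of 12 groups of genotype, treatment and sex, over all libraries together. A fold on this scale understates the change of low genes. Comparisons average the sexes, p-values are adjusted by Benjamini-Hochberg over all 16659 genes, and a gene passes at an adjusted p under 0.05. After a log2 change ± gives the SE, after a level the SD, and intervals are 95%. Symbols (51285 of 51456 identifiers), positions and lengths came from GENCODE vM21. Named genes were the 8 members, the listed genes that passed, the 3 most abundant of each list, and the 5 genes most like each member. The members and lists were chosen with earlier results of these data known. Alternatives were a pseudocount of 5, no filter, quantile normalization, a replicate block, a term for the length trend, a fit of only the groups compared, and leaving out each library. Leaving out the 12 libraries of high striatal markers or the 2 that correlate least was added after seeing the data, as were the settings run on the listed genes. The fit was tested on simulated data.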

Additional observations from a re-analysis of the deposited data

Results flagged for a closer look

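Among 96 combinations of gene and group, 6 had a highest or lowest library far from the others by Dixon's criterion, which chance meets in about 1 in 20 groups. Bcan read 7998 normalized counts in HT fluoxetine female 2, where the next highest of the 5 libraries read 6777, and 7763 in HT vehicle male 1, where the next highest of 5 read 6739. Vcan read 1567 in HT fluoxetine male 3, the next of 5 being 1206. Tnr read 11069 in HT lithium male 4, the next of 5 being 10480.1. Hapln4 read 1854 in WT lithium female 2, the lowest of 4 libraries, of which the next read 2091. Hapln4 also read 2005 (2004.51) in WT vehicle female 2, the highest of 4, of which the next read 1460.3.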

How the results depend on the processing

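The lower Hapln4 level in HT over all treatments passed under every setting run, with adjusted p of 0.00557 to 0.0452 (limma), and without each library in turn the change ran from -0.26 to -0.21. Over both genotypes the lithium change ran from 0.27 to 0.32 for Hapln4 and from 0.11 to 0.15 for Ncan without each library, and all passed. Tnr passed under lithium over both genotypes without WT vehicle male 1 or 4 (0.14 in each, adjusted p = 0.0424 and 0.0407, limma) and in WT (0.24 and 0.25, adjusted p = 0.0258 and 0.0274, limma). Ncan under lithium in WT gave 0.16 with no filter (adjusted p = 0.0517, limma), 0.11 with quantile normalization (0.121), 0.16 with only the groups compared (0.153) and 0.12 without the 2 libraries that correlate least (0.0708), so 1 net gene passed there in each, and 1 without the libraries of high striatal markers. With the length term 0 passed in WT and 0 over both genotypes. The cause was not tested.

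The genes passing, out of all tested, changed as follows from 127, 37, 19 and 623 for HT against WT under vehicle, fluoxetine, lithium and over all, 55, 140 and 791 for fluoxetine in HT, in WT and over both, and 148, 1421 and 2216 for lithium likewise. With no filter there were 64 (vehicle), 13 (fluoxetine), 23, 41 and 469 (fluoxetine in HT, WT, both), 79 and 884 (lithium in HT, WT). With only the groups compared there were 8 (vehicle), 32 (lithium), 2 (fluoxetine in WT) and 204 (lithium in WT). With the length term there were 108, 2 and 129 for fluoxetine in HT, WT and both, and 9, 59 and 195 for lithium. Without the libraries of high striatal markers there were 10, 6, 10 and 157 for HT against WT in the order above, 1, 0 and 83 for fluoxetine, and 12, 726 and 1222 for lithium. Without the 2 libraries that correlate least there were 77, 22 and 54 for HT against WT under vehicle, fluoxetine and lithium, 116, 6 and 519 for fluoxetine, 393 for lithium in HT and 2 for the difference of lithium effects.

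Among the 8 net genes, signs changed only for differences that did not pass. Sign changes in which the value moved by less than its SE are not listed. Of the called matrix genes, B3gat3 under lithium changed sign with the length term, as given above. With the length term Hapln2 had 0.23, 0.24 and 0.23 under lithium in HT, WT and both, Tnr -0.10 under lithium in HT, -0.037 over both and -0.037 under fluoxetine in WT, and Ncan -0.015 and -0.036 under fluoxetine in WT and both. Without the 2 libraries that correlate least Hapln1 had -0.10 for HT against WT under vehicle, Tnr -0.018 under fluoxetine in WT, and Ncan 0.010 for the difference of fluoxetine effects. Without the libraries of high striatal markers Vcan had 0.081 for HT against WT under fluoxetine and -0.079 under fluoxetine in WT, Bcan 0.044 there, and Hapln1 0.082 under fluoxetine over both. Without each library in turn the Hapln1 value for HT against WT under vehicle ran from -0.10 to 0.074 and the Tnr value under fluoxetine in WT from -0.018 to 0.14.

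Without each library in turn the genes passing numbered 34 to 394, 8 to 48 and 7 to 36 for HT against WT under vehicle, fluoxetine and lithium, 19 to 203, 5 to 563 and 486 to 1288 for fluoxetine in HT, WT and both, 56 to 270 and 796 to 1979 for lithium in HT and WT, and 0 to 1 and 0 to 2 for the differences of fluoxetine and lithium effects. Net genes passing under lithium numbered 1 to 3 in WT and 2 to 3 over both. Pairs of net genes passing numbered 5 without WT vehicle male 2, against 3 with it, and Ncan with Tnr was not among the 5. A replicate block left 47 genes for fluoxetine in WT and changed no other call of a net gene. Libraries sharing a number had a mean correlation of -0.01 (range -0.31 to 0.27) and 10 of 57 correlated best with their own number. The check pooled all groups, and some WT vehicle females carry another number in their library name. A pairing within a treatment could thus have been missed, by the check and by the replicate block. The depth of reads is unknown, and Acan and Hapln2 were the genes with the widest intervals.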

Other observations

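Within WT fluoxetine libraries, picked after the values were seen, the sexes did not overlap in Acan, Hapln4 and Tnr. The share of all genes that separate the sexes in this arm was not counted. The values are therefore a description and not a result about net genes. Acan ran 86.4, 93.2 and 106 (lowest, median, highest) in the 5 females, against 203, 242 and 268 in the 5 males. Hapln4 ran 1729, 1949 and 2235 in the females, against 1279.6, 1434 and 1574 in the males. Tnr ran 10209.9, 10619 and 10825 in the females, against 8146, 9208 and 9708 in the males. Olfactory bulb markers summed to 956, 1107 and 2324 in those females, against 6166, 6920.2 and 15323 in those males. Striatal markers summed to 7274, 16312 and 26283 in the females, against 6532, 7199 and 7802 in the males. Parvalbumin interneuron markers, in a sum that mostly follows Cplx1, came to 28668, 29198 and 31677 in the females, against 24415, 27412 and 28376 in the males. In HT fluoxetine libraries Acan ran 109, 179 and 236 in females, against 126, 163 and 201 in males. The part of the markers in these values was not tested.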
